A study of Mus musculus with 17 samples.

Results

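The Egr and Nr4a genes encode immediate early transcription factors, and their loci were followed here through ATAC-seq, which measures how readily a transposase cuts chromatin. Members were all regions of the table that the deposited annotation assigned to Egr1, Egr2, Egr3, Nr4a1, Nr4a2 or Nr4a3 as overlapped gene or as gene with the nearest start, which gave 47 of 66177 regions. Egr1 had 10 regions, Egr2 5, Egr3 12, Nr4a1 9, Nr4a2 5 and Nr4a3 6. The assignment is one of position and no region was tested for an effect on its gene. Of the 12 regions of Egr3, 9 had Pebp4 as the overlapped or neighboring gene and Egr3 as the nearest start, and the 2 most distant regions of Egr1 lay toward Etf1. The 16 libraries comprised naive B cells (nB; B220+ GL7- Fas- lymph node cells of unimmunized male mice; 3 C and 2 KO), germinal center B cells (GCB; B220+ Fas+ GL7+ lymph node cells binding phycoerythrin, PE; 2 C and 4 KO) and bone marrow plasma cells (BMPC; CD138+ cells of female mice; 3 C and 2 KO). GCB and BMPC came from mice 30 days after immunization with PE in CFA, each GCB library was a pool of 2 mice, and GCB pools were of either sex. All mice were on a B6;129S4 background, aged between 8 and 12 weeks, and carried floxed Dnmt3a and Dnmt3b alleles (Dnmt3afl/fl Dnmt3bfl/fl). KO mice also carried Cd19cre/wt, which expresses Cre in the B lineage, and C littermates were Cd19wt/wt and carried no Cre. Cell type, tissue, sex and immunization cannot be told apart between nB and BMPC, nor cell type and immunization between nB and GCB. Between GCB and BMPC, cell type and tissue cannot be told apart. Sex was also unlike in both comparisons with GCB, since pools of either sex were set against male nB and female BMPC mice.

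Immediate early genes are transcribed within minutes of a stimulus without new protein synthesis. In B cells the antigen receptor induces them through SRF with its ETS-domain partners and through CREB. EGR1, EGR2 and EGR3 are zinc finger proteins that bind a shared GC-rich site, and NR4A1, NR4A2 and NR4A3 are orphan nuclear receptors that bind DNA as monomers or dimers. In lymphocytes both families are known as early records of antigen receptor signaling and as brakes on activation.

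The sequences below are of the regions whose accessibility differed most between cell types at Egr2, Egr3, Nr4a1, Nr4a2 and Nr4a3, and of the Egr3 region with the smallest p between genotypes. Each is the central 300 bases of its region on the plus strand of mm9, in lower case. Capitals mark matches on either strand to 8 motifs, namely the CArG box bound by SRF, TGACGTCA (CREB), GCGTGGGCG (EGR), AAAGGTCA (NR4A monomer), TGANTCA (AP-1), CAGCTG (E-box), GGAAGT (ETS) and GAAAC (part of IRF sites).
Nr4a1, 9606 bases upstream, chr15:101087324-101087623: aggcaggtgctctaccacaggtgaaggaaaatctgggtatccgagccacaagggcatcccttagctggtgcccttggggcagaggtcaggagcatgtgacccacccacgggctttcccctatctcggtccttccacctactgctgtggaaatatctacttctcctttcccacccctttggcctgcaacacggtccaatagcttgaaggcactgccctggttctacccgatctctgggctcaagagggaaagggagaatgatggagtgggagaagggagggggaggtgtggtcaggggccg
Egr3, 7728 bases upstream, chr14:70469012-70469311: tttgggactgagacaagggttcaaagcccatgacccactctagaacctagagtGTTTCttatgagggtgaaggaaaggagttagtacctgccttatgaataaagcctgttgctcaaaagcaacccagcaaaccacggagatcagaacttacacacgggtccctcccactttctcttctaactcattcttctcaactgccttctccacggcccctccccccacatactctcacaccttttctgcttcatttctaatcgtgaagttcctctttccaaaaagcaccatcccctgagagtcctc
Egr3, 82201 bases upstream, chr14:70394562-70394861: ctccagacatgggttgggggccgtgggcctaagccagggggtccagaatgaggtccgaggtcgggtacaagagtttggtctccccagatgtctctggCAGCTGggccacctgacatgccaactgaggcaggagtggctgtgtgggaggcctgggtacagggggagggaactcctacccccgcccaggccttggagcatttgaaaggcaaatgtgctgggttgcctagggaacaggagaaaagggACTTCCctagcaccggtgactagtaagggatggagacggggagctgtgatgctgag
Egr2, 39634 bases upstream, chr10:66960247-66960546: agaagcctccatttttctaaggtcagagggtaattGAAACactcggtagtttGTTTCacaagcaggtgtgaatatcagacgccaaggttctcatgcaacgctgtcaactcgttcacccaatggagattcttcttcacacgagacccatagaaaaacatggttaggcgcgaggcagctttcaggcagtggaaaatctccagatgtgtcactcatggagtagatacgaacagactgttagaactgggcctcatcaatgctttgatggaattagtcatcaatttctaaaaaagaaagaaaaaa
Nr4a2, 52490 bases upstream, chr2:57028985-57029284: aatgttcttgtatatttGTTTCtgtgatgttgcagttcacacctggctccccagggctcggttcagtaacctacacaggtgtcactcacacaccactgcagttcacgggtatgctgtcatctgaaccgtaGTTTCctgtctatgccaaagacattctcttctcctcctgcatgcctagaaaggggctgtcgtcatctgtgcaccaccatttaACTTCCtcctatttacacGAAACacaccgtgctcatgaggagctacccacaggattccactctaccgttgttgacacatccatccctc
Nr4a3, 13050 bases downstream of the start, chr4:48077281-48077580: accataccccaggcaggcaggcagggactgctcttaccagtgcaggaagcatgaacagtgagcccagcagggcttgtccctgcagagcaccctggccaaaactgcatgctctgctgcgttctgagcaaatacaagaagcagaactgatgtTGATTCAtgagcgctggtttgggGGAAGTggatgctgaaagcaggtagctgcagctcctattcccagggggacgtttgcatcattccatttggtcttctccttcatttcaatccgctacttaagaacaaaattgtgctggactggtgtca
No 2 matches overlap in these sequences. None of the 8 motifs matched in the Nr4a1 sequence. The Nr4a3 sequence, from an intron, held TGANTCA and GGAAGT, and the Nr4a2 sequence held GGAAGT and GAAAC.

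The start region of Egr2 and the region nearest the start of Egr3 carried the same CArG box, shown because this element is the SRF site of serum-inducible promoters. Capitals mark the box, on the plus strand of mm9, with 10 bases on each side.
Egr2, chr10:67000535-67000564: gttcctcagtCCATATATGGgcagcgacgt
Egr3, chr14:70476640-70476669: ctttgtctgtCCATATATGGgcagctacgt
A CArG box matched in 5 of the 47 regions, all at Egr genes, with 2 matches in the Egr2 start region and 5 in the Egr1 start region. The Egr3 regions 479, 1284 and 10871 bases upstream held 1 each, and no Nr4a region held one. TGACGTCA matched once, in the downstream start region of Nr4a2. GCGTGGGCG matched in the Egr3 region 1284 bases upstream, 2 times, and AAAGGTCA once, in the Egr2 region 39634 bases upstream. Whole regions differ in length and were not compared with others. Over the central 300 bases of the 39 regions that were at least that long, the CArG box matched in 3, TGACGTCA in 1, TGANTCA in 4, CAGCTG in 5, GGAAGT in 12 and GAAAC in 21, and GCGTGGGCG and AAAGGTCA in 0. Among the same windows of all 53185 regions of that length, the shares were 1.40% for the CArG box, 0.959% for TGACGTCA, 0.391% for GCGTGGGCG, 1.34% for AAAGGTCA, 8.93% for TGANTCA, 20.8% for CAGCTG, 30.4% for GGAAGT and 55.0% for GAAAC.

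Most start regions stayed accessible in all 3 cell types, while many regions away from the starts opened or closed. Accessibility is given as reads in a region per 1e6 reads that the library had in any region (RPPM). Calls were those of limma at a false discovery rate of 0.01 with a log2 fold change beyond 1 in either direction, on the log2(RPPM + 1) scale, which understates the change of low values. Reads in regions numbered between 4104875 and 6079018 in nB, 907959 and 2280954 in GCB and 5357687 and 8232313 in BMPC, so that 3 reads stood for between 0.364 and 3.30 RPPM. Mitochondrial reads took between 7.43% and 10.1% in GCB and between 2.56% and 4.59% in the other libraries, and their part in the GCB values was not tested. The regions of Dnmt3a (9) and Dnmt3b (4) gave no call between genotypes, and whether any of them covers the floxed part is not given in the sources used here, so they do not check the deletion. Starts of defining genes followed the labels in part. Among germinal center genes, Rgs13, a regulator of G protein signaling, had 45.7 RPPM in C GCB, 33.6 in C nB and 0.364 in C BMPC, while Fas and S1pr2, a receptor that confines cells to the germinal center, were highest in C BMPC (31.2 and 39.3 RPPM, against 20.6 and 26.2 in C GCB and 15.3 and 14.4 in C nB). The start of Bcl6, the germinal center repressor, went against its list, with 20.0 RPPM in C GCB and 53.8 in C nB. Among plasma cell genes, Tnfrsf17, the receptor BCMA, had 20.0 RPPM in C BMPC against 0.392 in C nB. Slamf7 (95.2 against 53.3), Prdm1 (65.6 against 44.5), Xbp1 (75.5 against 60.8) and Sdc1 (13.5 against 9.73) were also higher in C BMPC. Irf4 went against its list, with 44.1 RPPM in C BMPC and 57.4 in C nB. Summed over 7 mature B cell genes, start regions had between 288 and 310 RPPM in nB, 148 and 201 in GCB and 73.2 and 77.5 in BMPC. For 6 plasma cell genes the sums were between 214 and 240, 148 and 190, and 296 and 333 RPPM, in the same order. None of 6 T cell genes had a region near its start, and 3 of 7 myeloid genes summed to between 16.3 and 20.5, 10.5 and 20.7, and 25.4 and 29.4 RPPM. For 2 of 3 erythroid genes the sums were between 47.6 and 60.2, 36.3 and 53.5, and 61.3 and 70.8 RPPM, with no region for Gata1, and for 1 of 2 NK cell genes between 0.558 and 1.95, 3.82 and 6.61, and 2.05 and 3.58 RPPM. The part of other cell types in the values below was not tested, and fewer cells with an open region cannot be told apart from less opening per cell.

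The Egr2 start region (chr10:66999373-67000956; promoter, exon and intron) was open in every library. EGR2 restrains antigen receptor responses in lymphocytes. The region measured 139, 132 and 140 RPPM in C nB and 136 and 134 in KO nB. GCB had 102 and 97.9 RPPM in C, and the KO libraries had 106, 86.6, 105 and 110. In BMPC it measured 120, 114 and 120 RPPM in C and 103 and 91.6 in KO. All nB libraries lay above all GCB and BMPC libraries, but the differences were below the limit of a call, at a log2 fold change of -0.45 (SE 0.09, limma adjusted p = 0.00036) for GCB and -0.21 (SE 0.08, limma adjusted p = 0.035) for BMPC against nB in C.

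The Egr1 start region (chr18:35019901-35021011; promoter and exon) lay between 66.2 and 89.7 RPPM in all libraries. EGR1 is the best known early growth response factor. It measured 76.0, 86.3 and 88.2 RPPM in C nB, 89.7 and 89.0 in KO nB, 73.5 and 84.3 in C GCB, and 73.8, 66.2, 74.5 and 76.9 in KO GCB. BMPC had 76.5, 84.1 and 74.6 RPPM in C and 73.4 and 69.1 in KO. The C groups overlapped, and BMPC against nB in C gave a log2 fold change of -0.09 (95% interval -0.28 to 0.10, limma adjusted p = 0.44). In KO, both nB libraries lay above all GCB and BMPC libraries, without a call.

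The Nr4a3 start region (chr4:48057154-48058327) measured 70.2, 60.7 and 63.5 RPPM in C nB, 67.8 and 55.1 in KO nB, 60.3 and 60.4 in C GCB and 51.8, 49.6, 65.3 and 70.6 in KO GCB. BMPC had the lowest means, with 47.7, 50.9 and 47.3 RPPM in C and 39.5 and 37.5 in KO, of which C overlapped KO GCB, and neither difference from nB was called (log2 fold change -0.40 in C and -0.65 in KO). A second promoter region of Nr4a3, 1434 bases upstream, had 129 ± 5.18 RPPM for C nB (SD, n = 3), 95.1 ± 1.99 for C GCB (SD, n = 2) and 110 ± 1.04 for C BMPC (SD, n = 3).

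The promoter region of Egr3 and the start region of Nr4a1 lost accessibility. Egr3 had no region over its annotated start, and the nearest (chr14:70476537-70476772), which holds the CArG box shown above, measured 18.0, 19.2 and 18.4 RPPM in C nB and 22.9 and 19.9 in KO nB. It measured 3.08 and 10.3 RPPM in C GCB and 2.20, 3.82, 6.58 and 5.59 in KO GCB. BMPC had 7.02, 5.47 and 7.01 RPPM in C and 7.41 and 8.40 in KO. No nB library overlapped the others, and the log2 fold change against nB in C was -1.53 (SE 0.33, limma adjusted p = 0.00049) for GCB and -1.39 (SE 0.30, limma adjusted p = 0.00023) for BMPC. The Egr3 promoter region 1284 bases upstream had 76.3 ± 9.19 RPPM for C nB (SD, n = 3) and 52.3 ± 3.29 for C BMPC (SD, n = 3), and was called only for GCB against nB in KO.

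NR4A1, also called Nur77, is widely used as a reporter of antigen receptor signaling. Its start region (chr15:101096703-101097608) measured 33.4, 30.7 and 35.0 RPPM in C nB, 36.7 and 30.9 in KO nB, 21.1 and 25.8 in C GCB and 18.7, 15.9, 14.5 and 14.0 in KO GCB. BMPC had 16.8, 16.2 and 11.7 RPPM in C and 20.3 and 17.5 in KO. All nB libraries lay above the rest, with a log2 fold change of -1.11 (SE 0.16, limma adjusted p = 1.5e-06) for BMPC against nB in C. That call was lost without C BMPC replicate 3 (log2 fold change -0.96). The Nr4a1 start was not called for BMPC against nB in KO, nor for GCB against nB in C. For GCB against nB in KO it was called lower, at a log2 fold change just beyond the limit.

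Nr4a2 moved the other way. Both of its annotated starts had a region. The upstream one (chr2:56975689-56976867) measured 13.2, 14.5 and 12.8 RPPM in C nB, 13.0 and 16.3 in KO nB, 9.24 and 10.3 in C GCB and 11.0, 10.2, 14.0 and 11.2 in KO GCB. In BMPC it measured 29.8, 39.4 and 36.0 RPPM in C and 33.9 and 44.4 in KO, above every other library, with a log2 fold change of 1.31 (SE 0.17, limma adjusted p = 2.4e-07) against nB and 1.74 (SE 0.19, limma adjusted p = 2.2e-08) against GCB in C. The downstream start region (chr2:56966978-56967755) showed no such change, with 16.4 ± 3.28 RPPM for C nB (SD, n = 3), 22.5 ± 3.25 for C GCB (SD, n = 2) and 18.8 ± 6.40 for C BMPC (SD, n = 3).

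**Figure D1:**
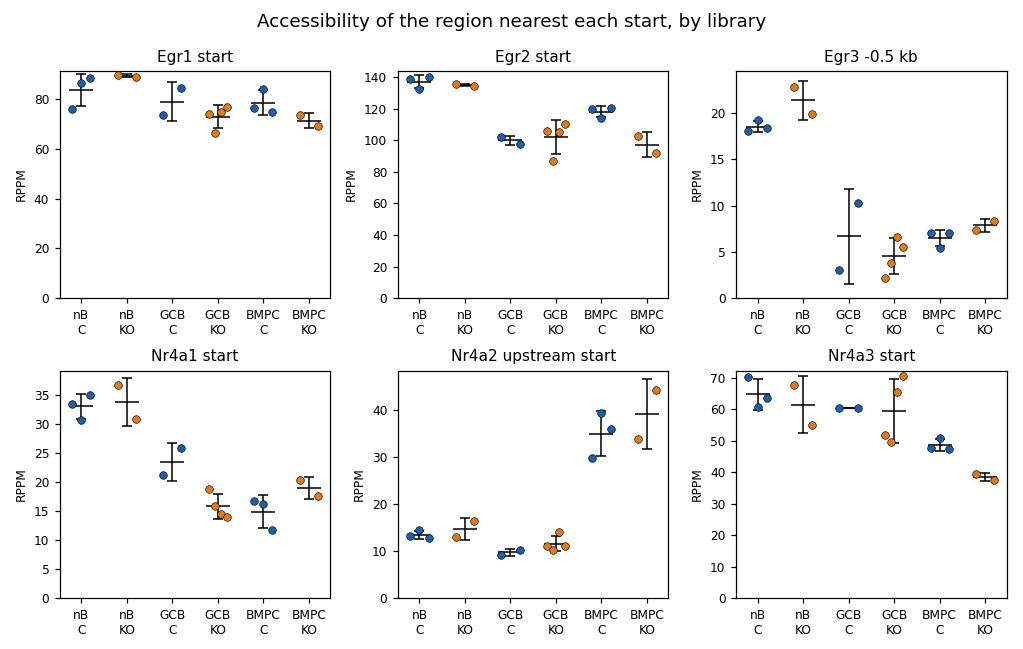
Accessibility (RPPM, linear axis from 0) of the region nearest the start of each gene in each of the 16 libraries; points are libraries (blue C, orange KO), and bars the group mean ± SD. Egr1 lies between 66.2 and 89.7 RPPM in all libraries, Egr3 and Nr4a1 are highest in nB, and the upstream start of Nr4a2 is highest in BMPC.

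Per kilobase, mean levels of the regions nearest the starts in C nB were in the order Egr2 (86.5 RPPM per kb), Egr3 (78.6), Egr1 (75.2), Nr4a3 (55.2), Nr4a1 (36.5) and Nr4a2 (upstream start, 11.5). In C BMPC the order was Egr2 (74.6), Egr1 (70.6), Nr4a3 (41.4), Nr4a2 (29.7), Egr3 (27.5) and Nr4a1 (16.4). Levels of different regions were not tested against each other, and the C nB values of Egr2, Egr3 and Egr1 lay close together. The order depends on region width, which ran from 236 bases (Egr3) to 1584 bases (Egr2). In RPPM not divided by width, Egr3 lay far below Egr2 and Egr1 in C nB.

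Between cell types, 28 of the 47 regions were called in at least 1 comparison and 19 in none. The share of all regions called in at least 1 comparison was not computed, so these 2 counts have no background beside them. In C libraries, GCB against nB gave 4 higher and 5 lower regions, where 14.2% of all regions were called higher and 8.47% lower. BMPC against nB gave 4 higher and 19 lower (18.0% and 20.1% of all regions), and BMPC against GCB 3 higher and 12 lower (11.3% and 19.1%). In KO libraries the counts were 5 higher and 10 lower for GCB against nB (18.4% and 7.84% of all regions), 4 higher and 16 lower for BMPC against nB (18.4% and 16.9%) and 3 higher and 13 lower for BMPC against GCB (12.1% and 19.9%). The median log2 fold change of the 47 regions for BMPC against nB was -0.71 in C and -0.65 in KO, and that of all regions 0.03 and 0.08. The comparisons share libraries within a genotype, but C and KO libraries are separate mice. Of the regions called for BMPC against nB, 19 were called in the same direction in both genotypes, which is 82.6% of the C calls and 95.0% of the KO calls, where over all regions the shares were 79.9% and 86.3%. For GCB against nB the count was 8, or 88.9% of the C calls and 53.3% of the KO calls (76.9% and 66.5% over all regions). For BMPC against GCB it was 14, or 93.3% and 87.5% (77.7% and 73.9% over all regions). With a pseudocount of 5 RPPM, BMPC against nB gave 4 higher and 9 lower regions in C, BMPC against GCB 3 and 5 in C and 2 and 8 in KO, and GCB against nB 2 and 6 in KO. Over all 66177 regions, BMPC against nB in C then gave 5673 higher and 6614 lower, where the main setting gave 11897 and 13330. BMPC against GCB gave 4009 and 6071 in C and 4081 and 6019 in KO, and GCB against nB 4643 and 2366 in KO. The count for GCB against nB in C dropped from 9 to 5 without C GCB replicate 1, and that in KO from 15 to 9 without KO nB replicate 1.

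Loss of accessibility in BMPC lay mostly outside promoters, as it did over all regions. For BMPC against nB in C, 2 of the 13 member regions annotated as promoter were called lower and 1 higher, where 6.41% of all promoter regions were called lower. Of the other 34, 17 were called lower and 3 higher, where 23.9% of all other regions were called lower. The shares of all promoter and all other regions called higher were not computed. The median log2 fold change was -0.22 over the 13 and -1.08 over the 34, and 0.10 and -0.03 over all promoter and all other regions.

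**Figure D2:**
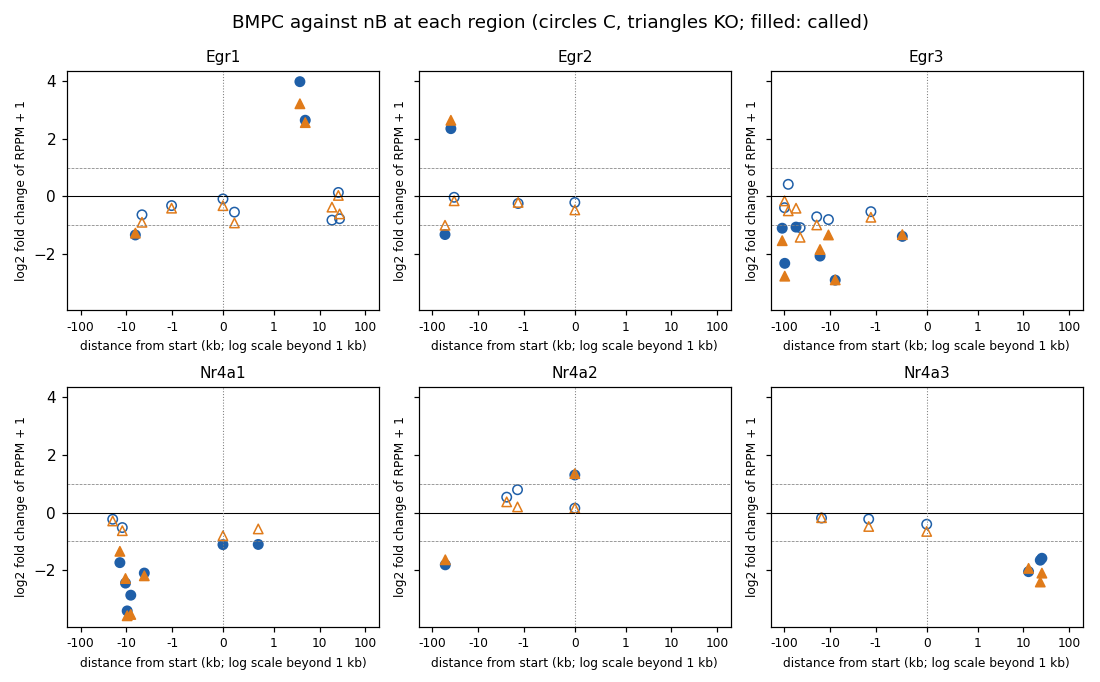
Log2 fold change of RPPM + 1 for BMPC against nB at every member region by its distance from the start of the gene (kb, log scale beyond 1 kb on each side); circles are C and triangles KO, filled where called, and dashed lines mark an absolute change of 1. Lower regions lie upstream of Nr4a1 and Egr3 and inside Nr4a3, and higher ones at the end of Egr1, upstream of Egr2 and at the upstream start of Nr4a2.

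Upstream of Nr4a1, 5 regions between 4057 and 13867 bases from the start closed in BMPC. The region 9606 bases upstream (chr15:101087278-101087670), outside genes and with the sequence printed above, measured 15.8, 22.6 and 19.7 RPPM in C nB and 24.8 and 16.9 in KO nB. It measured 3.52 and 7.49 RPPM in C GCB and 13.2, 8.27, 8.77 and 6.99 in KO GCB. BMPC had 1.04, 0.730 and 0.934 RPPM in C and 0.850 and 0.747 in KO, which stand for between 4 and 8 reads. The 3 cell types did not overlap. The log2 fold change for BMPC against nB was -3.41 (SE 0.27, limma adjusted p = 2.0e-11) in C and -3.58 (SE 0.33, limma adjusted p = 8.3e-10) in KO, and C nB had 21.5 times the RPPM of C BMPC.

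The region 8011 bases upstream (chr15:101088821-101089265) measured 16.1, 20.0 and 18.6 RPPM in C nB, 20.4 and 21.3 in KO nB, 3.96 and 7.96 in C GCB and 8.81, 4.46, 4.38 and 6.99 in KO GCB. In BMPC it measured 3.90, 1.28 and 0.623 RPPM in C and 1.58 and 0.373 in KO, all below the lowest GCB library, with a log2 fold change against nB of -2.87 (SE 0.34, limma adjusted p = 3.4e-08) in C and -3.54 (SE 0.41, limma adjusted p = 5.3e-08) in KO. The other 3 fell by 1.74 (13867 bases upstream), 2.45 (10453) and 2.10 (4057) on the log2 scale for BMPC against nB in C. The intronic region 694 bases downstream fell by 1.10 in C and was not called in KO. In contrast, the region 12282 bases upstream lies between these and had 28.6 ± 1.53 RPPM for C BMPC (SD, n = 3) against 41.4 ± 1.0 for C nB (SD, n = 3). The region 19912 bases upstream, toward Grasp, had 67.3 ± 5.02 RPPM for C BMPC (SD, n = 3) and 78.9 ± 1.64 for C nB (SD, n = 3). Neither was called in any comparison.

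**Figure D3:**
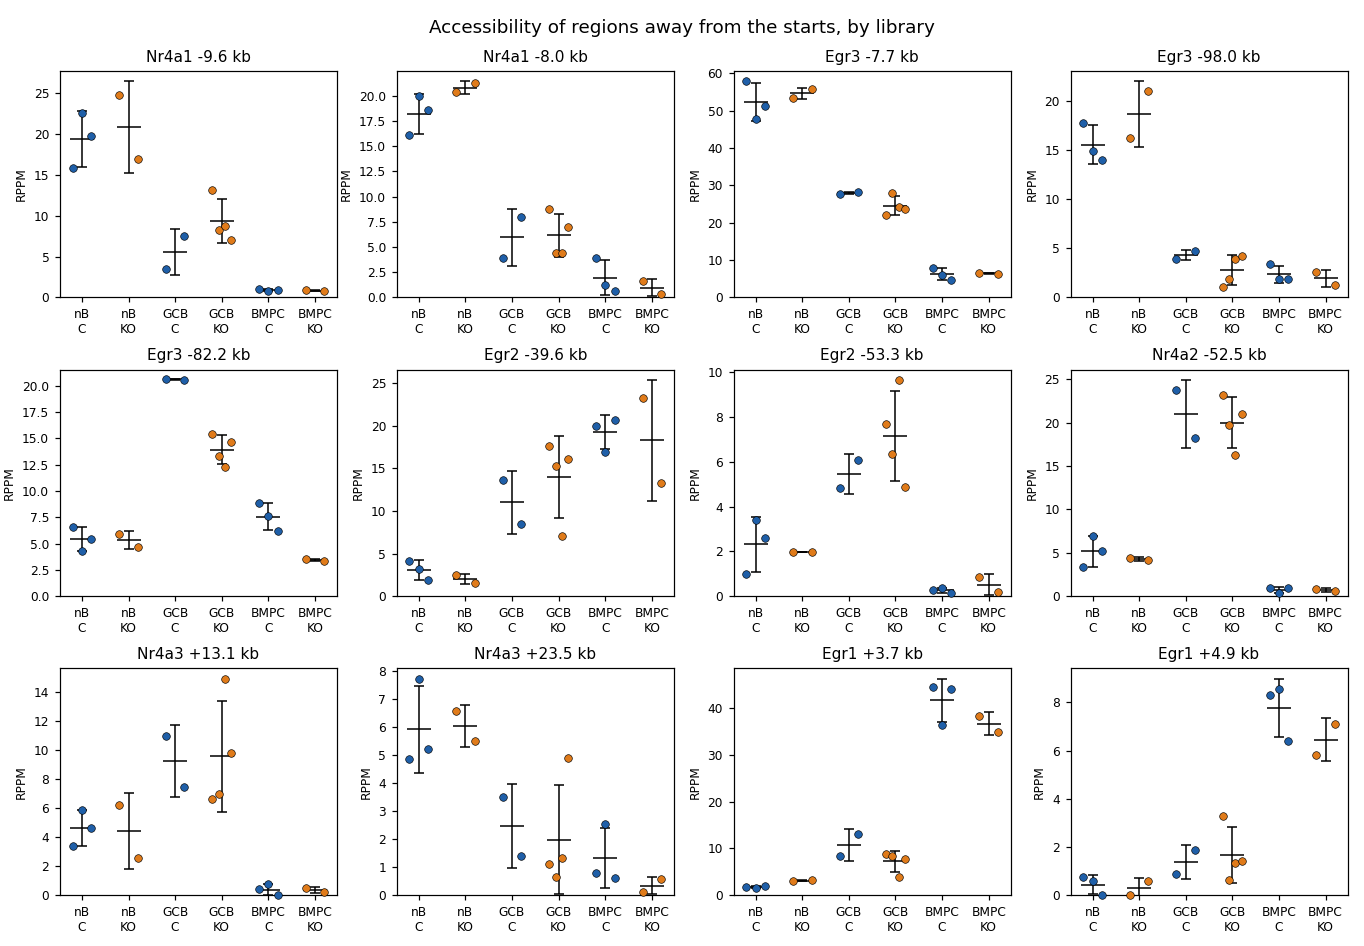
Accessibility (RPPM, linear axis from 0) of the 12 regions away from the starts whose values are given for every library, by group; points are libraries (blue C, orange KO), and bars the group mean ± SD. Both Nr4a1 regions and the Egr3 regions 7728 and 98044 bases upstream fall from nB to BMPC, the Nr4a2 region and the Egr2 region 53266 bases upstream peak in GCB, and both Egr1 regions are highest in BMPC.

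Upstream of Egr3, accessibility fell at regions up to 111423 bases away, from intergenic regions into the introns of Pebp4. The region 7728 bases upstream (chr14:70468800-70469523), outside genes and with the sequence printed above, measured 58.0, 47.9 and 51.2 RPPM in C nB, 53.5 and 55.7 in KO nB, 27.7 and 28.1 in C GCB and 22.0, 28.0, 24.1 and 23.8 in KO GCB. BMPC had 7.93, 6.02 and 4.67 RPPM in C and 6.56 and 6.35 in KO. The 3 cell types did not overlap, and the log2 fold change for BMPC against nB was -2.91 (SE 0.16, limma adjusted p = 1.9e-14) in C and -2.90 (SE 0.20, limma adjusted p = 3.1e-12) in KO.

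The region 98044 bases upstream (chr14:70378666-70379207), in a Pebp4 intron, measured 17.8, 14.9 and 14.0 RPPM in C nB, 16.3 and 21.1 in KO nB, 3.96 and 4.68 in C GCB and 1.10, 1.91, 3.95 and 4.19 in KO GCB. BMPC had 3.38, 1.82 and 1.87 RPPM in C and 2.55 and 1.31 in KO. It had fallen already in GCB, with a log2 fold change against nB of -1.63 (SE 0.35, limma adjusted p = 0.00039) in C. The region 16601 bases upstream, just past Pebp4, had 29.0 ± 2.56 RPPM for C GCB (SD, n = 2) and 25.6 ± 2.68 for C nB (SD, n = 3) without a call, and fell in C BMPC to 5.42 ± 1.50 RPPM (SD, n = 3; log2 fold change against GCB -2.25, SE 0.25, adjusted p = 1.9e-08). The regions 111423 and 55541 bases upstream fell by 1.11 and 1.07 for BMPC against nB in C, and that 10871 bases upstream was called only in KO, where it fell by 1.34. Of the remaining 3 Egr3 regions in Pebp4 introns, those 99135 and 19626 bases upstream were not called, nor was that 45196 bases upstream, which had at most 2.95 RPPM.

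The Egr1 locus opened at its end in BMPC. The region 3721 bases from the start (chr18:35024583-35025640; last exon and beyond) measured 1.71, 1.51 and 1.86 RPPM in C nB, 2.96 and 3.15 in KO nB, 8.36 and 13.1 in C GCB and 8.81, 8.27, 3.95 and 7.69 in KO GCB. BMPC had 44.5, 36.3 and 44.1 RPPM in C and 38.4 and 34.9 in KO, above all other libraries, and 24.6 times the level of nB in C. The log2 fold change for BMPC against nB was 3.98 (SE 0.24, limma adjusted p = 6.4e-14) in C and 3.21 (SE 0.29, limma adjusted p = 5.1e-10) in KO. For GCB against nB it was 2.10 (SE 0.26, limma adjusted p = 3.4e-07) in C and 0.96 (SE 0.25, limma adjusted p = 0.0023), below the fold limit, in KO. The difference between these was not called (limma adjusted p = 0.72).

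The next Egr1 region, 4872 bases from the start (chr18:35025734-35025952), measured 0.731, 0.565 and 0 RPPM in C nB, 0 and 0.590 in KO nB, 0.880 and 1.87 in C GCB and 3.30, 0.636, 1.32 and 1.40 in KO GCB, at most 4 reads in each. BMPC had 8.32, 8.58 and 6.38 RPPM in C and 5.83 and 7.09 in KO, between 38 and 64 reads, with a log2 fold change against nB of 2.64 (SE 0.35, limma adjusted p = 2.7e-07) in C. Upstream, the region 6365 bases from the start fell by 1.34 for BMPC against nB in C, and the one 4559 bases upstream fell by 1.24 for GCB against nB in KO. The other 6 Egr1 regions, the start included, were not called in any comparison.

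Egr2 had regions that opened after the naive stage. The region 39634 bases upstream (chr10:66959812-66960982), outside genes, measured 4.14, 3.20 and 1.86 RPPM in C nB, 2.47 and 1.57 in KO nB, 13.6 and 8.43 in C GCB and 17.6, 15.3, 7.01 and 16.1 in KO GCB. BMPC had 20.0, 17.0 and 20.7 RPPM in C and 23.3 and 13.3 in KO. GCB and BMPC overlapped and both lay above nB, with a log2 fold change in C of 1.57 (SE 0.32, limma adjusted p = 0.00027) for GCB and 2.35 (SE 0.29, limma adjusted p = 7.1e-08) for BMPC against nB.

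The region 53266 bases upstream of Egr2 (chr10:66947058-66947350) was highest in GCB, with 4.84 and 6.09 RPPM in C and 7.71, 6.36, 9.65 and 4.89 in KO, between 7 and 22 reads. It measured 0.974, 3.39 and 2.61 RPPM in C nB, 1.97 and 1.97 in KO nB, 0.260, 0.365 and 0.156 in C BMPC and 0.850 and 0.187 in KO BMPC. No library of one cell type overlapped those of another, and the log2 fold change for BMPC against GCB was -2.36 (SE 0.37, limma adjusted p = 5.0e-06) in C and -2.43 (SE 0.35, limma adjusted p = 1.4e-06) in KO. The Egr2 region 33638 bases upstream was called for GCB against nB in KO (log2 fold change 1.03) and not in C (0.68), and the difference between these changes was not called.

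A distant Nr4a2 region was open chiefly in GCB. It lies 52490 bases upstream (chr2:57028905-57029364) outside genes, with the sequence printed above, and measured 23.8 and 18.3 RPPM in C GCB and 23.1, 19.7, 16.2 and 21.0 in KO GCB. It had 3.41, 6.97 and 5.21 RPPM in C nB, 4.44 and 4.13 in KO nB, 0.910, 0.365 and 0.934 in C BMPC and 0.850 and 0.560 in KO BMPC, where it held between 2 and 7 reads. The 3 cell types did not overlap. The log2 fold change for GCB against nB was 1.86 (SE 0.29, limma adjusted p = 9.5e-06) and for BMPC against GCB -3.67 (SE 0.29, limma adjusted p = 5.0e-11) in C, and -3.62 (SE 0.28, limma adjusted p = 2.1e-11) for the latter in KO. The 2 regions 1385 and 2388 bases upstream of the downstream start were not called in any comparison.

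Inside Nr4a3, 3 intronic regions closed in BMPC. The region 13050 bases from the start (chr4:48077169-48077693) measured 3.41, 5.84 and 4.65 RPPM in C nB, 6.25 and 2.56 in KO nB, 11.0 and 7.49 in C GCB and 6.61, 7.0, 14.9 and 9.79 in KO GCB. BMPC had 0.390, 0.730 and 0 RPPM in C and 0.486 and 0.187 in KO, at most 4 reads, below all other libraries. GCB lay above nB without a call, and BMPC against GCB gave a log2 fold change of -2.91 (SE 0.37, limma adjusted p = 2.5e-07) in C and -2.93 (SE 0.35, limma adjusted p = 8.9e-08) in KO. The region 23529 bases from the start (chr4:48087648-48088084) was highest in nB, with 4.87, 7.72 and 5.21 RPPM in C and 6.58 and 5.51 in KO, against 3.52 and 1.41 in C GCB and 1.10, 0.636, 1.32 and 4.89 in KO GCB. In BMPC it measured 0.780, 2.55 and 0.623 RPPM in C and 0.121 and 0.560 in KO, with a log2 fold change against nB of -1.65 (SE 0.40, limma adjusted p = 0.00084) in C and -2.41 (SE 0.49, limma adjusted p = 0.00016) in KO. The region 25523 bases from the start fell by 1.58 in C. The region 15399 bases upstream stayed low in all groups and was not called.

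Between genotypes, no member region was called by limma in any cell type. The counts were 0 of 47 in nB, where 0% of all regions were called, 0 in GCB (0.0317%) and 0 in BMPC (0.104%). At an unadjusted p under 0.05 there was 1 member in nB (1.67% of all regions), 6 in GCB (11.8%) and 6 in BMPC (9.55%). The 6 in BMPC were lower in KO, as were 5 of the 6 in GCB, where over all regions 2.59% were lower in BMPC and 4.34% in GCB at this p. The median log2 fold change of the members was 0.03 in nB, -0.07 in GCB and -0.07 in BMPC, and that of all regions -0.01, 0.03 and 0.03. Over the 47 regions the 95% intervals reached from -1.14 to 1.36 in nB, -1.29 to 1.29 in GCB and -1.63 to 1.16 in BMPC, and so took in a change of 2-fold at some regions. Reads were also simulated at these library sizes with an assumed spread and 200 regions changed 4-fold per comparison. Of these regions limma called 54% in nB, 69.5% in GCB and 47.5% in BMPC. The edgeR likelihood ratio test called 82.5%, 67% and 76.5%. Of the unchanged regions limma called 0, 13 and 0 in the same order, and this edgeR test 1, 1 and 3. The changed regions were drawn only from regions above a minimum mean, so these shares need not hold for the lowest members. A missing limma call therefore does not show that a region is unchanged.

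The region with the smallest p lay 82201 bases upstream of Egr3 in a Pebp4 intron (chr14:70394373-70395050), with the sequence printed above. In BMPC it measured 8.84, 7.66 and 6.23 RPPM in C and 3.52 and 3.36 in KO, with no overlap (log2 fold change -0.94, 95% interval -1.43 to -0.45, limma adjusted p = 0.057). Tests of the recovered reads with edgeR called it, with a log2 fold change of -1.20 (quasi-likelihood test, adjusted p = 0.0017) and -1.21 (likelihood ratio test, adjusted p = 0.00028), where these tests called 1.81% and 2.53% of all regions. In GCB it measured 20.7 and 20.6 RPPM in C and 15.4, 13.4, 12.3 and 14.7 in KO, again with no overlap (log2 fold change -0.54, limma adjusted p = 0.34). The nB libraries overlapped, at 6.58, 4.33 and 5.40 RPPM in C and 5.92 and 4.72 in KO. In both genotypes the region was most accessible in GCB (log2 fold change for GCB against nB 1.76 in C and 1.24 in KO).

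The Nr4a1 start region had the smallest p between genotypes in GCB, with a log2 fold change of -0.54 (95% interval -0.90 to -0.19, limma adjusted p = 0.20), while in BMPC it was 0.34 (95% interval -0.04 to 0.71). The test of whether the genotype difference itself differed between cell types called no member region for GCB against nB, BMPC against nB or BMPC against GCB, and 0% of all regions in each. At an unadjusted p under 0.05 this test had 5 members (6.21% of all regions), 3 (5.24%) and 6 (8.32%), and edgeR called 0 members in all 3 by both of its tests. For the Nr4a1 start, BMPC against GCB gave the smallest adjusted p among the members, 0.27.

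**Figure D4:**
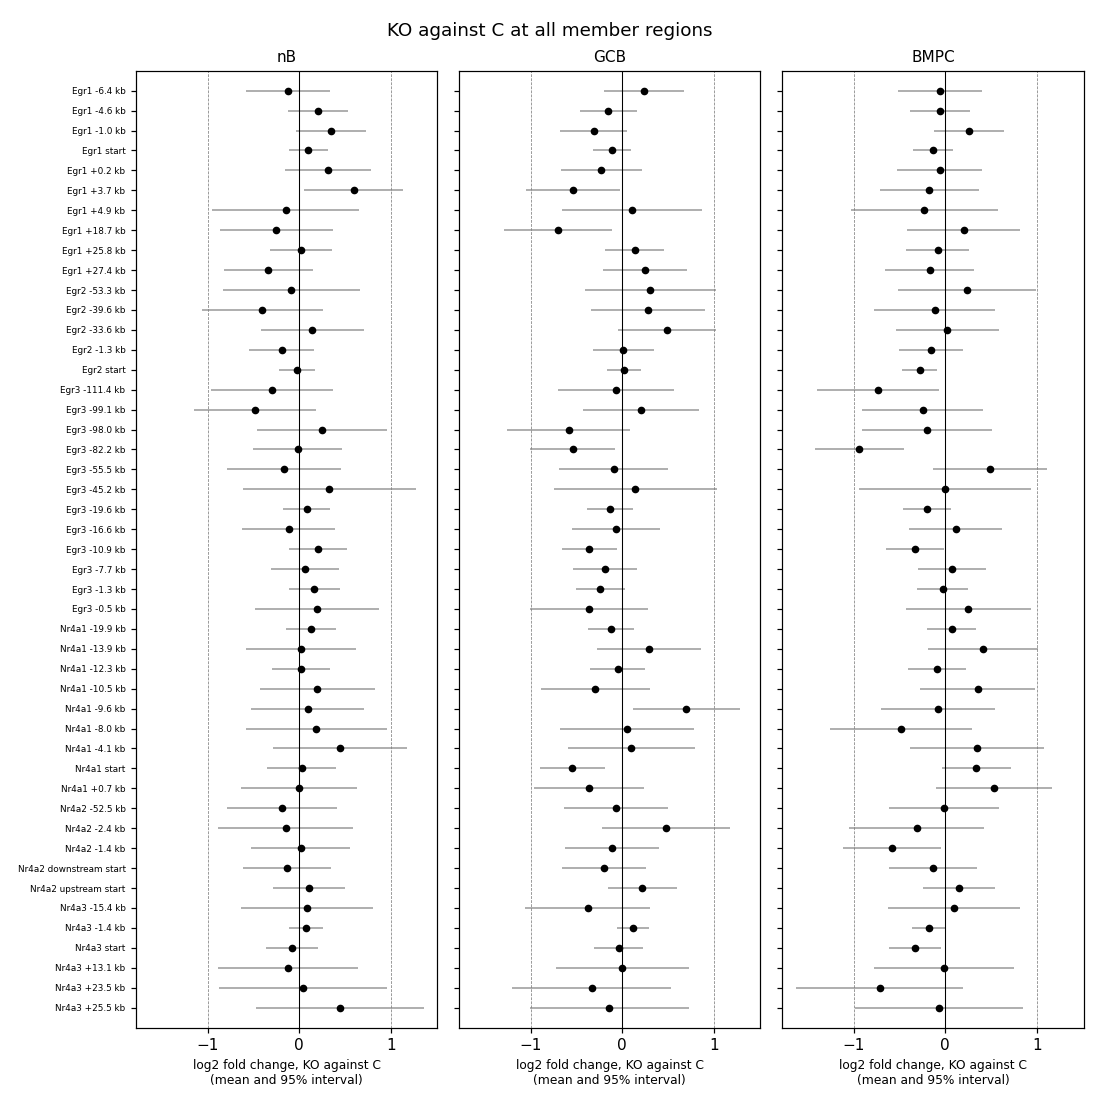
Log2 fold change of RPPM + 1 for KO against C (points) with its 95% interval (lines) at all 47 member regions in nB, GCB and BMPC, in order of distance from the start within each gene; dashed lines mark an absolute change of 1. The largest difference is that of the Egr3 region 82.2 kb upstream in BMPC, and no region was called by limma.

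Among promoter regions of other genes with a mean of at least 5 RPPM (12461), the levels over the 16 libraries most like the Egr3 promoter region were those of a promoter with no gene symbol (Pearson's r = 0.95), of Klf2, a regulator of lymphocyte trafficking (r = 0.95), and of Nab2, a corepressor of EGR proteins (r = 0.95). For the Nr4a1 start they were those of Boll (0.95), Fam129c (0.92) and Bcl11a, a B lineage transcription factor (0.92), and for the Nr4a3 start Ildr1 (0.92), Dusp6, a phosphatase of ERK (0.91), and Fcrl1 (0.90). The Egr2 start was most like L3mbtl3 (0.96), Dock10 (0.93) and Ndc1 (0.92), the upstream Nr4a2 start most like Cyth1, Adgrl2 and Rsbn1l (each 0.97), and the Egr1 start most like Rwdd2b (0.88), Tomt (0.86) and Cdk4 (0.85). These correlations are descriptions, since libraries of a cell type share their cell type and depth.

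Regions of other immediate early genes (29 genes such as Fos, Jun and Myc, 317 regions) had 39 higher (12.3%) and 109 lower calls (34.4%) for BMPC against nB in C, where 18.0% of all regions were called higher and 20.1% lower, with a median log2 fold change of -0.34 against 0.03 over all regions. Most of the lower calls came from 2 genes. Btg1, an antiproliferative gene, held 48 of the lower calls among its 62 regions, and Cd83, an activation marker, 14 of 19. Further lower calls lay, among other genes, at Dusp2 (8 of 9 regions), Dusp4 (8 of 21, with 1 higher), Klf2 (6 of 18) and Zfp36l1 (6 of 19, with 3 higher). Fos had 4 higher and 2 lower calls among 16 regions, Jun 1 higher among 4 and Myc 1 lower among 8. Fosb (4 of 9 regions), Nfkbia, the inhibitor of NF-kB (6 of 13), and Tnfaip3 (7 of 16) held higher calls, and Ier2, Jund and Zfp36 held none in either direction. The genes of EGR partners and inducers (12 genes, among them Nab1, Nab2, Srf and Creb1; 87 regions) had 11 higher (12.6%) and 19 lower calls (21.8%) with a median of -0.01, so that the lower share was near that of all regions. Dimer partners or known targets (6 of 7 genes with a region, among them Rxra, Id2 and Id3; 85 regions) had 17 higher (20.0%) and 24 lower calls (28.2%) with a median of -0.48, so that the higher share was near that of all regions. Between genotypes 1 region of these lists was called, higher in KO GCB, in the list of partners and inducers.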

How the data were processed

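ATAC-seq libraries of nB, GCB and BMPC from C and KO mice were assigned to groups from the labels, with 1 library of 17 left out by the authors. The authors aligned reads to mm9 and merged the peaks of the single samples into a union. For each region they deposited RPM values (called RPPM), the reads of a region per 1e6 reads that the library had in any region. The submitters' processing notes name Bowtie 1.1.1, Picard 1.127, MACS2 2.1.0.20140616 and edgeR 3.12.1, while the study's methods give other versions of Bowtie and MACS2, and which were used is not known. The deposited columns of the authors' comparisons (edgeR log2 fold changes, likelihood ratios, p-values and FDR for 9 comparisons) were not used. The table's gene names, distances and annotations were used as given.

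Dividing RPPM by the value of 1 read recovered whole reads for 100% of values (tolerance 0.01). limma 3.58.1 in R 4.3.3 was fitted to log2(RPPM + 1) of all 66177 regions, with a mean for each of 6 groups, a variance trend and p-values adjusted after Benjamini and Hochberg across the whole table. Calls required an adjusted p not above 0.01 and a log2 fold change of 1 or more in either direction. From this fit came 9 comparisons and 3 interactions. As alternatives, the pseudocount was set to 0.1 or 5 RPPM, regions under a mean of 1 RPPM were dropped, libraries were scaled by TMM, only the compared groups were fitted, recovered reads were tested in edgeR 4.0.16 (quasi-likelihood and likelihood ratio), and further fits used a replicate block for GCB pools or left out each library in turn. Scripts were tested on simulated data. A floor of 3 reads covers counting error only, since no molecular identifiers were used and duplicate reads are not separate molecules.

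Members, lists and tests were chosen with earlier results of these data known. The rule for named regions gave in full the region nearest each start (of 2 at distance 0 for Nr4a2, the one with the higher mean) and every called region, with all library values for the first and for the 2 largest changes per gene. Likeness was Pearson's r of log2(RPPM + 1). Sequences were read from the mm9 genome (NCBIM37), in which 284 regions on random or unplaced sequence were not searched. Plots were drawn with matplotlib 3.10.9 in Python 3.11.15. One marker gene, and the sum over its list, is not reported here.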

Additional observations from a re-analysis of the deposited data

Results flagged for a closer look

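In the 4 KO GCB libraries, 4 of the 47 regions had 1 library far from the others by Dixon's test. Chance alone flags about 1 group in 20 where values are continuous and equal in spread. Values of a few reads in libraries of unlike depth are neither, so that rate need not hold here. The share of all regions flagged was not computed. The Egr3 region 45196 bases upstream measured 2.19 RPPM (5 reads) in replicate 3 and 0 in the other libraries. The Egr1 promoter region 1028 bases upstream measured 18.7 RPPM (17 reads) in replicate 1 against at most 13.6 in the others. The Nr4a2 region 1385 bases upstream measured 4.89 RPPM (7 reads) in replicate 4 against at least 8.77 in the others. The Nr4a3 region 23529 bases from the start measured 4.89 RPPM (7 reads) in replicate 4 against at most 1.32 in the others.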

How the results depend on the processing

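A pseudocount of 5 RPPM moved the counts of called member regions most, from 23 to 13 for BMPC against nB in C, 15 to 8 for BMPC against GCB in C, 15 to 8 for GCB against nB in KO and 16 to 10 for BMPC against GCB in KO, and ended the call of the Nr4a1 start for BMPC against nB in C (log2 fold change -0.94), since it pulls low values together. The counts over all regions fell in these comparisons too. Both edgeR tests moved the count for KO against C in BMPC from 0 to 1, the Egr3 region 82201 bases upstream. With each library left out, counts lay between 5 and 9 for GCB against nB, 20 and 24 for BMPC against nB and 13 and 16 for BMPC against GCB in C, and between 9 and 16, 16 and 21, and 13 and 16 in KO, and were 0 for each genotype comparison and each interaction. No named region changed direction. C and KO GCB both have pools named F2 and M1, but the labels do not say that a name marks a shared litter or day, and deviations of same-named pools correlated at 0.04 and 0.06. With a replicate block for these pools the counts were 6 for GCB against nB and 14 for BMPC against GCB in C, 13 and 16 in KO, and 0 for KO against C in GCB. GCB libraries were the shallowest, so that values of a few reads there limit what can be called.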
